A study of Mus musculus with 30 samples.

Results

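The BMAL1, CLOCK, REV-ERB and ROR genes of the circadian clock, 7 in all, were followed in nucleus accumbens RNA of mice with a nerve injury or a sham operation that received tianeptine, desipramine or saline. Arntl encodes BMAL1, Clock encodes its partner CLOCK, and Npas2 encodes NPAS2, a relative of CLOCK. Nr1d1 and Nr1d2 encode the nuclear receptors REV-ERB alpha and REV-ERB beta, and Rora and Rorb encode ROR alpha and ROR beta. They were chosen by symbol among 55401 gene IDs in the count table. The choice also rested on measured values, since Arntl and Nr1d2 were known to differ between tianeptine and desipramine in these libraries, so comparisons of the 2 drugs are given as description without a test. All 7 had enough reads to be tested, among 23736 genes tested in all.

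In the mammalian clock, BMAL1 pairs with CLOCK or NPAS2 and switches on genes that carry E-box sequences, among them the Period and Cryptochrome repressors and the REV-ERB genes. REV-ERB and ROR proteins compete for the same short DNA element, named the ROR element, in the Arntl promoter, where ROR proteins activate and REV-ERB proteins repress. The accumbens holds such a clock, and NPAS2 is known from forebrain, the striatum included. ROR beta is known from cortical layers, retina and sensory relays.

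The groups were SNI tianeptine (6 mice), SNI desipramine (4), SNI saline (5), sham tianeptine (6), sham desipramine (4) and sham saline (5), all male C57BL/6J mice with 1 library of bilateral punches per animal. SNI is a spared nerve injury of the tibial form, a model of neuropathic pain, and the sham mice had the operation without the injury. Starting 4 weeks after surgery, tianeptine at 30 mg/kg, desipramine at 15 mg/kg or saline was given into the peritoneum 2 times a day for 3 weeks, so the saline groups carried the injections too. Tianeptine, an atypical antidepressant, is an agonist of the mu-opioid receptor. Desipramine belongs to the tricyclics and inhibits the noradrenaline transporter. The time of day at which tissue was taken is not given in the sources used here, and clock genes change over the day, so a difference between groups cannot be told apart from a difference in the hour of collection.

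Libraries held 24.5 to 120.7 M counts (M for mega). Those numbered 1 to 4 in each group (24 libraries, 24.5 to 37.7 M, called library set 1) differ in depth from those numbered 5 and 6 (6 libraries, 98.0 to 120.7 M, library set 2, with no desipramine library). The library set was a term in the test. Levels differed between sets for 5 members, and 32.3% of all genes did: set 2 was higher for Rorb (log2 difference 0.78), Rora (0.63), Nr1d2 (0.33) and Clock (0.30) and lower for Nr1d1 (-0.16), while Arntl (0.01) and Npas2 (0.25) did not pass. All 14 medium spiny neuron markers, which define striatal tissue, were found, with a summed level of 1270 to 9600 CPM (counts scaled to a common library size). SNI desipramine replicates 2 and 3 stood apart, with medium spiny neuron scores (mean log2 CPM of the markers, centred over all libraries) of -2.47 and -0.72 and septal, hypothalamic and thalamic neuron scores of 1.17 and 1.24, against medium spiny neuron scores of -0.22 and 0.43 in replicates 1 and 4 of that group. Where a result below involves SNI desipramine mice and moved without these libraries, both values are given, some of them only in the closing section on processing. Because punches are bulk tissue, fewer cells of a type and less RNA per cell cannot be told apart.

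Promoter windows of 3 members are shown because the ROR element links the nuclear receptors to Arntl, and the E-box links BMAL1 to the nuclear receptors. Each holds 250 bases before and 50 bases after an annotated start, 5′ to 3′ on the gene's strand, from RefSeq on GRCm38.p6 (mm10). Capitals mark a match to AGGTCA (the core of the ROR element), to TAGGTCA (the core with a T before it), to TAGGTTA (a 1-base change of that) or to CACGTT (an E'-box variant of the E-box, read as AACGTG on the other strand).
Arntl, chr7:113207261-113207560, plus strand: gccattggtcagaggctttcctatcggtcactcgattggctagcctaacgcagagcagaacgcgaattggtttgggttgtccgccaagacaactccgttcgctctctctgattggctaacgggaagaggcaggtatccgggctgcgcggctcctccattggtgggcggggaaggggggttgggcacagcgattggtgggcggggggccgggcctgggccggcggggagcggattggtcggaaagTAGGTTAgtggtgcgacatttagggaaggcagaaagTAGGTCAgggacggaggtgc
Nr1d1, chr11:98775328-98775627, minus strand: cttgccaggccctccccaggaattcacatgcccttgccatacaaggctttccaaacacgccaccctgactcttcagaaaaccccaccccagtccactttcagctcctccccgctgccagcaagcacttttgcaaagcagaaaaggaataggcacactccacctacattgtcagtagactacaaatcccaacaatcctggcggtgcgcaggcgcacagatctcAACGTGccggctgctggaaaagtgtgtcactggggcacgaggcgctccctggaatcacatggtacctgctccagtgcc
Nr1d2, chr14:18239057-18239356, minus strand: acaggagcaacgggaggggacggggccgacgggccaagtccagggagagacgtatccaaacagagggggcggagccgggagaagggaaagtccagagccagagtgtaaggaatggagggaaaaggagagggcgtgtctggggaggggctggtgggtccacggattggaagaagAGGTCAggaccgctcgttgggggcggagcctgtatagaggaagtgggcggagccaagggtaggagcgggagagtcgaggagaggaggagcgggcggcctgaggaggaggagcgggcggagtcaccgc

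Arntl has a pair of annotated starts 46 bases apart, and the window of the downstream start is the one shown, since it holds both matches. It carried TAGGTTA at bases -6 to 1, counted from base 1 at the start with no base 0, and TAGGTCA at bases 31 to 37, 2 matches on the same strand. The window of the other start holds the same TAGGTTA, at bases 41 to 47, and ends before TAGGTCA. Of 32851 promoter windows of this length, 1.44% held TAGGTTA on either strand and 2.61% held TAGGTCA. No other 1-base change of TAGGTCA was searched, so the 1.44% is no measure of how often some such change occurs. Nr1d2 had AGGTCA at -77 to -72, a motif held by 16.3% of windows, of which the TAGGTCA matches are a subset. Nr1d1 had the E'-box at -28 to -23, a motif held by 4.68% of windows. The E-box proper, CACGTG (7.15% of windows), and the D-box, TTACGTAA (0.119%), were found in none of the 11 windows of the 7 members. In other members AGGTCA was found in 1 window of Clock and CACGTT in 1 window of Rorb, and windows of Npas2 and Rora held none of these letters.

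Per length, Nr1d1 was the most abundant member, with a median of 63 CPM per kb of exon (46.5 to 73.6 over 30 libraries), and exceeded each of the others in 30 of 30 libraries. Nr1d2 (median 22.3 CPM per kb, 15.5 to 31.3) and Npas2 (21.2, 3.37 to 29.8) overlapped, with Nr1d2 above Npas2 in 19 of 30 libraries. Clock followed at 8.07 CPM per kb (6.04 to 10), then Arntl at 6.07 (4.62 to 9.55), Rora at 3.56 (2.96 to 6.69) and Rorb at 1.55 (1.02 to 3.03). Clock exceeded Arntl in 26 of 30 libraries, Arntl exceeded Rora in 28, and Rora exceeded Rorb in 30. Exon lengths are those of all annotated isoforms joined, so the order is approximate. Over all libraries the coefficient of variation of CPM was smallest for Nr1d1 (9.14%) and largest for Rorb (30.6%), with Npas2 (27.4%) spread 8.84-fold between its lowest and highest library.

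**Figure D1:**
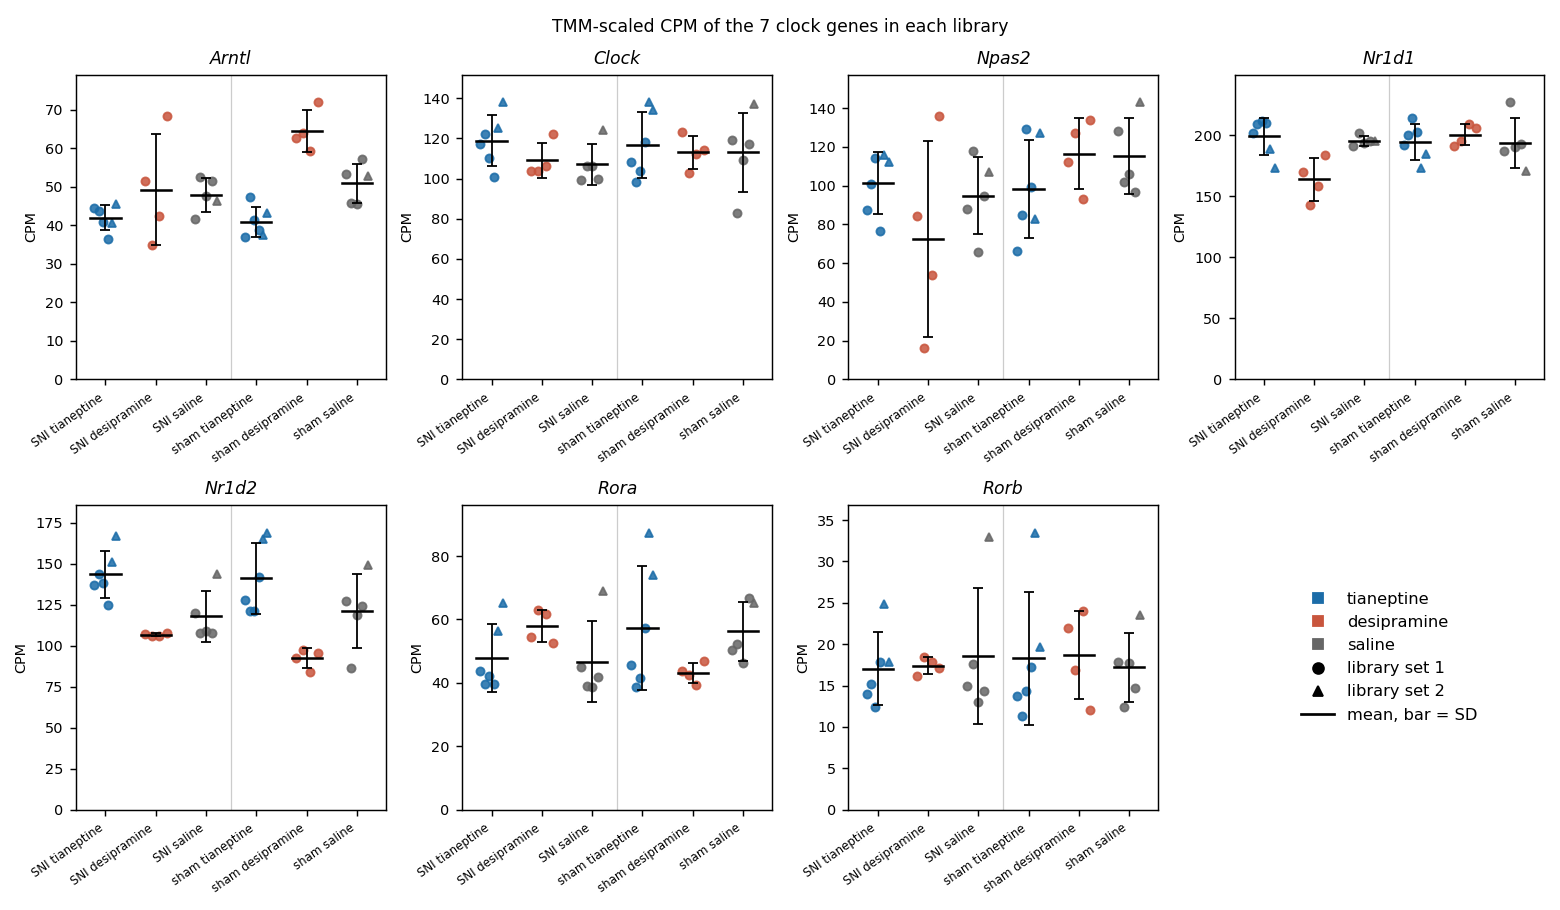
Level of each clock gene (y axis, TMM-scaled CPM from 0) in each library of the 6 groups (x axis), with circles for library set 1, triangles for library set 2, and the group mean with its SD. The mean of Arntl was highest in sham desipramine mice (64.4 CPM), Nr1d2 was higher in tianeptine than in desipramine libraries of the same surgery, and set 2 libraries lay high for Rora and Rorb.

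Arntl (ENSMUSG00000055116.8, GENCODE M21, chr7:113207465-113314126, plus strand) encodes the partner that CLOCK and NPAS2 share. In sham mice its level was 36.9 to 47.2 CPM (median 40, 6 libraries) on tianeptine, against 62.6, 64, 59.2 and 71.9 CPM on desipramine. These groups did not overlap, which held for 2.71% of all genes tested, in either direction. In SNI mice it was 36.5 to 45.5 CPM (median 42.3) on tianeptine, against 51.4, 34.8, 42.4 and 68.3 CPM on desipramine, and these groups overlapped. SNI desipramine replicates 2 and 3 were the low ones. The log2 difference of tianeptine from desipramine was -0.45 ± 0.09 (SE; edgeR) averaged over surgeries, -0.66 ± 0.12 in sham and -0.23 ± 0.12 in SNI mice. Without SNI desipramine replicates 2 and 3 the average was -0.59 ± 0.07.

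Nr1d2 (ENSMUSG00000021775.11, chr14:18204054-18239127, minus strand) encodes REV-ERB beta, a repressor of Arntl. Sham tianeptine libraries had 121 to 169 CPM (median 135), against 92.7, 97.3, 83.7 and 95.7 CPM in sham desipramine libraries. SNI tianeptine libraries had 125 to 167 CPM (median 141), against 107, 106, 106 and 108 CPM in SNI desipramine libraries. Neither pair of groups overlapped, in the direction opposite to Arntl. Of all genes tested, 2.71% did not overlap between the sham groups and 2.25% between the SNI groups, in either direction. By library set, the 4 tianeptine libraries of set 2 had 151 to 169 CPM and the 8 of set 1 had 121 to 144 CPM. The 8 desipramine libraries, all of set 1, had 83.7 to 108 CPM. The share of all genes that do not overlap in set 1 with both surgeries pooled was not tested. The log2 difference of tianeptine from desipramine was 0.40 ± 0.06 averaged over surgeries, 0.49 ± 0.08 in sham and 0.31 ± 0.08 in SNI mice, and 0.40 ± 0.07 on average without SNI desipramine replicates 2 and 3.

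Among the other members, Nr1d1 and Rora differed more between the drugs in SNI than in sham mice, and Rorb alike in both. Nr1d1, the REV-ERB alpha gene, differed by 0.33 ± 0.06 in SNI and by 0.01 ± 0.06 in sham mice. Rora, whose product activates Arntl, differed by -0.51 ± 0.11 in SNI and by 0.15 ± 0.11 in sham mice. Without SNI desipramine replicates 2 and 3 the SNI differences were 0.23 ± 0.07 for Nr1d1, -0.39 ± 0.14 for Rora and -0.51 ± 0.11 for Arntl, and 0 of all genes passed in that fit, against 315 with them. Rorb differed by -0.34 ± 0.13 on average, -0.36 ± 0.18 in sham and -0.31 ± 0.18 in SNI mice. Clock differed by -0.02 ± 0.06 and Npas2 by 0.03 ± 0.23 on average. Npas2 was at 0.39 ± 0.32 in SNI mice. Without SNI desipramine replicates 2 and 3 the sign of Npas2 turned in SNI mice and on average, with values in the closing section on processing. These contrasts chose the members, so the counts past the threshold are no test of them and nothing is read from them: 2 of 7 members lay past it in sham mice beside 0.0716% of all genes, 3 in SNI mice beside 1.33%, and 2 on average beside 0.438%. The 20 other clock genes were listed with earlier results of these data known, so their values here are description too. On average 5 of them lay past the threshold, all higher on tianeptine. They were Ciart, a clock repressor, at 0.97 ± 0.09, Dbp, an output transcription factor, at 0.88 ± 0.12, Bhlhe41 at 0.49 ± 0.08, Per3 at 0.39 ± 0.07 and Tef at 0.39 ± 0.08.

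**Figure D2:**
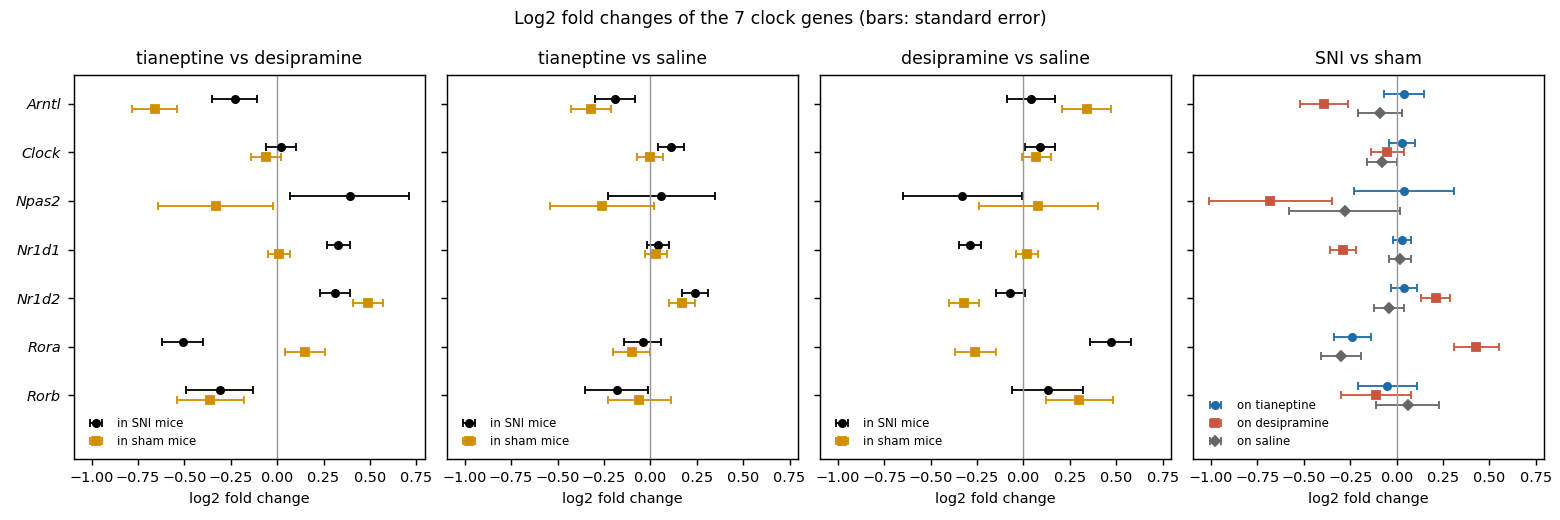
Log2 fold changes with standard errors (x axis) of the 7 clock genes (rows) for each drug comparison in SNI and in sham mice and for SNI against sham mice on each treatment. Arntl lay below 0 and Nr1d2 above 0 for tianeptine against desipramine in both surgeries, while Rora and Nr1d1 differed there in SNI mice and lay near 0 or on the other side in sham mice.

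Clock (ENSMUSG00000029238.11, chr5:76209868-76304792, minus strand), which encodes the partner of BMAL1, had 98.3 to 138 CPM in the 12 tianeptine libraries, 103 to 123 CPM in the 8 desipramine libraries and 82.9 to 137 CPM in the 10 saline libraries. The drug groups overlapped, and its mean was 119 ± 12.8 CPM in SNI tianeptine mice, 109 ± 8.88 in SNI desipramine mice and 107 ± 10.1 in SNI saline mice (SD). These values mix the library sets, and set 2, where Clock was higher, held no desipramine library. In set 1, both surgeries pooled, the median of Clock was 109 CPM on tianeptine, 109 on desipramine and 106 on saline. Npas2, which can stand in for Clock in the forebrain, averaged 101 ± 16.1 CPM in SNI tianeptine, 72.7 ± 50.8 in SNI desipramine and 94.8 ± 20 in SNI saline mice, and 98.2 ± 25.5 in sham tianeptine, 117 ± 18.1 in sham desipramine and 115 ± 19.5 in sham saline mice. The wide SD in SNI desipramine mice came from libraries between 16.1 and 136 CPM. Rorb, the least abundant member, had group means between 17.1 and 18.7 CPM. Its highest values, 33.5 CPM in a sham tianeptine and 33 CPM in an SNI saline library, were both in set 2.

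Comparison with saline asks which drug departs from the vehicle. It shares the tianeptine and desipramine libraries with the contrast that chose the members, and both drugs share the same saline libraries, so it is not separate support for the difference. Arntl had 45.5 to 57.2 CPM in sham saline and 41.6 to 52.4 CPM in SNI saline libraries. None of the 12 tianeptine libraries was above the saline median of its surgery, while all 4 sham desipramine libraries were above every sham saline library. Sham desipramine and sham saline libraries did not overlap for 1.7% of all genes tested, in either direction. Nr1d2 had 127, 86.4, 119, 124 and 149 CPM in sham saline and 120, 108, 109, 108 and 144 CPM in SNI saline libraries. No desipramine library was above the saline median of its surgery, and 10 of 12 tianeptine libraries were. These counts mix the library sets, and Nr1d2 was higher in set 2 (log2 difference 0.33), which held no desipramine library. In set 1, both surgeries pooled, Nr1d2 had 121 to 144 CPM on tianeptine, 86.4 to 127 on saline and 83.7 to 108 on desipramine. The share of all genes with such splits around the saline median was not tested, for Nr1d2 or for Arntl.

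Tianeptine minus saline, averaged over surgeries, was -0.26 ± 0.08 for Arntl and 0.21 ± 0.05 for Nr1d2 on the log2 scale, and neither passed (edgeR quasi-likelihood test, Benjamini-Hochberg adjusted p = 0.97 for each). No gene passed, 0% of those tested. By edgeR 2 members had an unadjusted p under 0.05, as did 4.74% of all genes. DESeq2 and limma-voom called 0 members. In sham mice alone 0 of 7 members passed beside 0% of genes by edgeR, and 0 by DESeq2 and limma-voom. The same held in SNI mice. An unadjusted p under 0.05 by edgeR was found for 2 members and 6.84% of all genes in sham mice. In SNI mice it was found for 1 member and 2.87% of all genes. For Clock the average was 0.06 (95% interval -0.05 to 0.17), for Nr1d1 0.04 (-0.05 to 0.12), for Rora -0.07 (-0.22 to 0.08), for Rorb -0.12 (-0.36 to 0.12) and for Npas2 -0.10 (-0.52 to 0.32).

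Desipramine minus saline, averaged over surgeries, was 0.19 ± 0.09 for Arntl (edgeR adjusted p = 0.387), -0.19 ± 0.06 for Nr1d2 (0.233) and -0.14 ± 0.05 for Nr1d1 (0.26). Without SNI desipramine replicates 2 and 3 Arntl was at 0.33 ± 0.07 (edgeR adjusted p = 0.254) and Nr1d1 at -0.08 ± 0.05 (0.855). None of the 7 members passed, beside 0.0295% of all genes, with 0 called by DESeq2 and limma-voom. An unadjusted p under 0.05 by edgeR was found for 3 members and 12.5% of all genes. Among the 20 other clock genes 2 passed, both lower: Dbp at -0.73 ± 0.12 (edgeR adjusted p = 0.014) and Ciart at -0.56 ± 0.09 (0.0191). In sham mice Nr1d2 differed by -0.32 ± 0.08 and Arntl by 0.34 ± 0.13. There 0 members and 0% of genes passed by edgeR, and 0 members were called by DESeq2 or limma-voom. By edgeR 3 members and 7.63% of all genes had an unadjusted p under 0.05. Without sham saline replicate 2, whose Nr1d2 level of 86.4 CPM was the lowest of that group, Nr1d2 passed in sham mice (-0.41 ± 0.06, edgeR adjusted p = 0.0113, 2 genes in all) and on average (-0.24 ± 0.04, 0.031, 7 genes in all). Taking out a low saline value widens this difference by construction, so the calls show only that 1 library decides them. In SNI mice the members with the smallest p were Nr1d1 (-0.29 ± 0.06, edgeR adjusted p = 0.0732) and Rora (0.47 ± 0.11, 0.0769), with 0% of genes passing by edgeR. These 2 members had an unadjusted p under 0.05 by edgeR, as did 17.5% of all genes. DESeq2 called both, among 532 genes of 23736, and limma-voom called 0 members. Without SNI desipramine replicates 2 and 3 Nr1d1 was at -0.19 ± 0.07 and Rora at 0.35 ± 0.14 there, and Arntl at 0.31 ± 0.11 against 0.04 ± 0.13 with them (edgeR adjusted p = 1 for each without them).

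The share of counts in the 13 mitochondrially encoded protein genes, which varies with RNA handling as well as with tissue, moved with Nr1d2. Within groups of library set 1, deviations of Nr1d2 and of this share from their group means had Pearson r = 0.92 and Spearman rho = 0.83 over 24 libraries (permutation p = 0.00041 and 0.00029, adjusted over the 7 members 0.00287 and 0.00203), and r = 0.81 without sham saline replicate 2 and sham tianeptine replicate 4. For the other members r lay between -0.38 (Nr1d1) and 0.71 (Clock, adjusted permutation p = 0.0699). The share itself overlapped between drugs: 0.96 to 1.68% in sham tianeptine, 1.2 to 1.53% in sham desipramine and 0.86 to 1.58% in sham saline libraries. In SNI mice it was 0.93 to 1.59% on tianeptine, 1.42 to 1.66% on desipramine and 1.04 to 1.58% on saline. With the share as a covariate, chosen after seeing the data, the SE of Nr1d2 was smaller. Tianeptine minus saline became 0.18 ± 0.03 (edgeR adjusted p = 0.0169, the 1 gene of all those tested that passed), and desipramine minus saline became -0.23 ± 0.03 (0.00197, among 29 genes). Tianeptine minus desipramine was 0.41 ± 0.03. Without the covariate the edgeR adjusted p of Nr1d2 was 0.97 for tianeptine minus saline and 0.233 for desipramine minus saline. The drug libraries are those behind the choice of members, and the covariate moved with Nr1d2. These calls are thus not separate support for a drug effect.

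SNI against sham is a contrast that did not choose the members. On tianeptine, on desipramine and averaged over treatments it shares drug libraries with the contrast that did. Its values there are thus not fully separate from the choice. On saline, 0 of 7 members passed beside 0% of all genes by edgeR, and 0 by DESeq2 and limma-voom. By edgeR 1 member and 9.74% of all genes had an unadjusted p under 0.05. Rora was the one with an unadjusted p under 0.05, at 44.9, 38.9, 38.8, 41.8 and 68.9 CPM in SNI saline and 50.4, 52.4, 46.3, 66.7 and 65.2 CPM in sham saline libraries. Replicate 5 of each group, from set 2, was high, and the groups overlapped (log2 difference -0.30 ± 0.11, edgeR adjusted p = 0.436). On tianeptine, 0 members and 0% of genes passed by edgeR, and 0 members by DESeq2 and limma-voom. By edgeR 1 member, Rora at -0.24 ± 0.10, had an unadjusted p under 0.05, as did 1.21% of all genes. For Arntl the difference was -0.09 on saline (95% interval -0.33 to 0.15) and 0.04 on tianeptine (-0.18 to 0.26), and for Nr1d2 it was -0.04 (-0.19 to 0.12) and 0.04 (-0.10 to 0.18). Averaged over the 3 treatments 0 members passed beside 1.84% of genes, with 0 called by DESeq2 and limma-voom. The unadjusted p by edgeR was under 0.05 for 2 members and for 22.6% of all genes. Without SNI desipramine replicate 4, the library of that group with the highest medium spiny neuron score, 3 members passed (Arntl, Npas2 and Nr1d1), as did 3756 of 24050 genes.

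On desipramine, SNI and sham mice differed in 2 of 7 members, 1 lower and 1 higher, beside 11.3% of all genes. Nr1d1 (ENSMUSG00000020889.11, chr11:98767932-98775333, minus strand) had 170, 143, 158 and 184 CPM in SNI desipramine and 191, 195, 209 and 206 CPM in sham desipramine libraries. These groups did not overlap, and Nr1d1 fell by 0.29 on the log2 scale (SE 0.07, edgeR adjusted p = 0.0103). Rora (ENSMUSG00000032238.17, chr9:68653786-69388246, plus strand) had 54.5, 63, 61.6 and 52.7 CPM in SNI desipramine and 43.8, 42.5, 39.4 and 46.8 CPM in sham desipramine libraries. These did not overlap either, and Rora rose by 0.43 ± 0.12 (edgeR adjusted p = 0.0221). Nr1d2 also did not overlap, with its SNI desipramine libraries higher, but did not pass (0.21 ± 0.08, edgeR adjusted p = 0.1). Non-overlap was found in 3 of 7 members and 9.96% of all genes.

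Neither call held without SNI desipramine replicates 2 and 3. There Nr1d1 was at -0.20 ± 0.07 (edgeR adjusted p = 0.614) and Rora at 0.30 ± 0.14 (0.648), and 0 of all genes passed. With the cortical and the septal, hypothalamic and thalamic marker scores as covariates the values were -0.15 ± 0.07 and 0.42 ± 0.15 (edgeR adjusted p = 0.83 each). With SNI desipramine replicate 2 alone left out 0 members passed by edgeR (Nr1d1 adjusted p = 0.0663, Rora 0.13), and Rora also did not pass without SNI desipramine replicate 3 (0.0837) or sham desipramine replicate 3 (0.0696). With SNI desipramine replicate 4 left out, which gives replicates 2 and 3 more weight, 4 passed (Arntl, Npas2, Nr1d1 and Rora), as did 5903 of 24050 genes. The septal, hypothalamic and thalamic score ran from -0.28 to 1.24 in SNI desipramine and from -0.41 to 0 in sham desipramine libraries. The choroid plexus score did not overlap (0.23 to 1.19 in SNI desipramine, -0.83 to -0.18 in sham desipramine libraries). The cortical excitatory score ran from -1.92 to 0.25 in SNI desipramine and from -0.96 to 1.88 in sham desipramine libraries, and the astrocyte score from -0.01 to 0.48 in SNI desipramine and from -0.23 to 0.02 in sham desipramine libraries. With the medium spiny neuron and astrocyte scores as covariates Nr1d1 was at -0.20 ± 0.07 (edgeR adjusted p = 0.0938) and Rora at 0.33 ± 0.13 (0.142), and the part of the choroid plexus score was not tested. Arntl (-0.39 ± 0.13, edgeR adjusted p = 0.0558) and Npas2 (-0.68 ± 0.33, 0.185) did not pass with all libraries, and without replicates 2 and 3 they were at -0.12 ± 0.12 and -0.09 ± 0.24.

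Of the 20 other clock genes 6 passed in SNI against sham mice on desipramine, 4 lower and 2 higher, with a median of -0.16 beside 0.01 over all genes. Among the lower ones were Usp2 (-0.61 ± 0.17), which encodes a deubiquitinase, and Cry1 (-0.40 ± 0.13) and Cry2 (-0.28 ± 0.08), which encode the cryptochrome repressors. Among the higher ones was Fbxl21 (0.42 ± 0.13), which encodes a ubiquitin ligase subunit. On saline, on tianeptine and averaged over treatments none of the 20 passed by edgeR, and on desipramine none did without SNI desipramine replicates 2 and 3, where 0 of all genes passed.

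Whether desipramine acted differently in the 2 surgeries was tested as an interaction, which shares its desipramine libraries with the choice of members. Desipramine minus saline in SNI mice less the same in sham mice was 0.73 ± 0.16 for Rora (edgeR adjusted p = 0.227) and -0.31 ± 0.09 for Nr1d1 (0.236). None of the 7 members passed beside 0% of genes by edgeR, with 1 called by DESeq2 (Rora, among 55 genes) and 0 by limma-voom. The unadjusted p by edgeR was under 0.05 for 3 members and for 12.3% of all genes. Without SNI desipramine replicates 2 and 3 Rora was at 0.60 ± 0.18 and Nr1d1 at -0.22 ± 0.09 (edgeR adjusted p = 0.9 each), and 0 of all genes passed. Without SNI desipramine replicate 4, 3 members passed (Arntl, Nr1d1 and Rora) among 957 of 24050 genes. For tianeptine the interaction passed for 0 members and 0% of genes by edgeR, and DESeq2 and limma-voom called 0. No member had an unadjusted p under 0.05 by edgeR, beside 4.2% of all genes.

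Nr1d1 lies tail to tail with Thra, a thyroid hormone receptor gene on the other strand, and the 2 genes share 263 exonic bases, 8.55% of Nr1d1 exon length. The strand setting of the counting is not given in the sources used here, so reads of this stretch may have been assigned to either. Thra had 846300 counts in all and Nr1d1 256389. Within groups they moved together (Pearson r = 0.89, Spearman rho = 0.78, permutation p = 0.00018 and 0.00115, 1 pair tested, 24 libraries), and r was 0.82 without SNI desipramine replicate 2 and sham saline replicate 2. In SNI against sham mice on desipramine Thra fell by 0.29 (SE 0.07, edgeR adjusted p = 0.0103), the size seen for Nr1d1. The Thra call was lost without SNI desipramine replicates 2 and 3 (-0.21 ± 0.07, edgeR adjusted p = 0.614), with the cortical and septal scores (-0.20 ± 0.07, 0.83), with the medium spiny neuron and astrocyte scores (-0.19 ± 0.06, 0.0993) and without the library set term (0.0579). In desipramine against saline in sham mice Thra was at 0.15 ± 0.07 and Nr1d1 at 0.02 ± 0.06. The part of shared reads in the Nr1d1 values was not tested.

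Variation within groups holds no difference between drugs or surgeries and so is separate from the choice of members. Among the 24 libraries of set 1, 0 of 21 pairs of members passed adjustment over the pairs (permutation within groups), and 5 had an unadjusted p under 0.05 for Pearson's r. Arntl and Npas2 had r = 0.77 (Spearman rho 0.49, permutation p = 0.0114 and 0.0493, adjusted 0.11 and 0.269), which was 0.41 without SNI desipramine replicates 2 and 4 and so rests on those libraries. Clock and Nr1d2 had r = 0.75 (rho 0.55, permutation p = 0.0109 and 0.0173, adjusted 0.11 and 0.269), and 0.48 without sham saline replicates 1 and 2. The REV-ERB genes ran against each other (r = -0.54, rho = -0.43, permutation p = 0.0403 and 0.0554, adjusted 0.198 and 0.269). For Arntl and Nr1d2, the pair that parted between the drugs, r was 0.17 (rho 0.14, permutation p = 0.386 and 0.531, adjusted 0.477 and 0.656).

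With markers of cell types, 9 of 63 pairs of a member and a marker list passed adjustment over all 63. What share of all genes would pass with these lists was not tested. High r within groups was common. Between a member and single genes the 95th percentile of absolute r was 0.79 for Arntl, 0.84 for Npas2, 0.74 for Clock, 0.73 for Nr1d1 and 0.67 for Rorb. Npas2 (ENSMUSG00000026077.15, chr1:39193731-39363236, plus strand) followed the medium spiny neuron score (r = 0.96, rho = 0.91, permutation p = 1e-05 each, the smallest these permutations give, adjusted 0.00063 each; r = 0.87 without SNI desipramine replicates 2 and 4). In SNI desipramine libraries it had 84.3, 16.1, 53.9 and 136 CPM beside scores of -0.22, -2.47, -0.72 and 0.43. Arntl ran against the astrocyte score (r = -0.84, rho = -0.82, permutation p = 4e-05 and 0.00012, adjusted 0.00126 and 0.00378; r = -0.82 without the 2 farthest libraries). Rorb (ENSMUSG00000036192.15, chr19:18930605-19111196, minus strand) followed the cortical excitatory neuron score (r = 0.74, rho = 0.75, permutation p = 0.00029 and 0.00024, adjusted 0.00609 and 0.00504; r = 0.65 without the 2 farthest). The other 6 pairs had an adjusted permutation p of 0.0455 each for r, of which 2 also passed by rho: Nr1d1 with the choroid plexus score (r = -0.58, rho = -0.67, permutation p = 0.00342 and 0.00163, adjusted 0.0257 for rho) and Arntl with the fibroblast and meninges score (r = -0.42, rho = -0.56, permutation p = 0.00455 and 0.00342, adjusted 0.0373 for rho). Those that passed by r alone include Arntl with the medium spiny neuron score (r = 0.77, rho = 0.57, permutation p = 0.0065 and 0.0155, adjusted 0.0974 for rho; r = 0.45 without SNI desipramine replicates 2 and 4) and Clock with the oligodendrocyte score (r = -0.54, rho = -0.55, permutation p = 0.0037 and 0.0124, adjusted 0.0974 for rho). By rho 6 of the 63 pairs passed. Rora and Nr1d2 passed with no marker list. Over all 30 libraries r for Nr1d1 with the choroid plexus score was -0.20, against -0.58 in set 1. Sham tianeptine replicate 6, a set 2 library, had a choroid plexus score of 4.18. Of that list Ttr, Kcne2, Sostdc1 and Slc4a5 lay near the floor, with medians of 0.299, 0.31, 0.326 and 0.253 CPM.

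**Figure D3:**
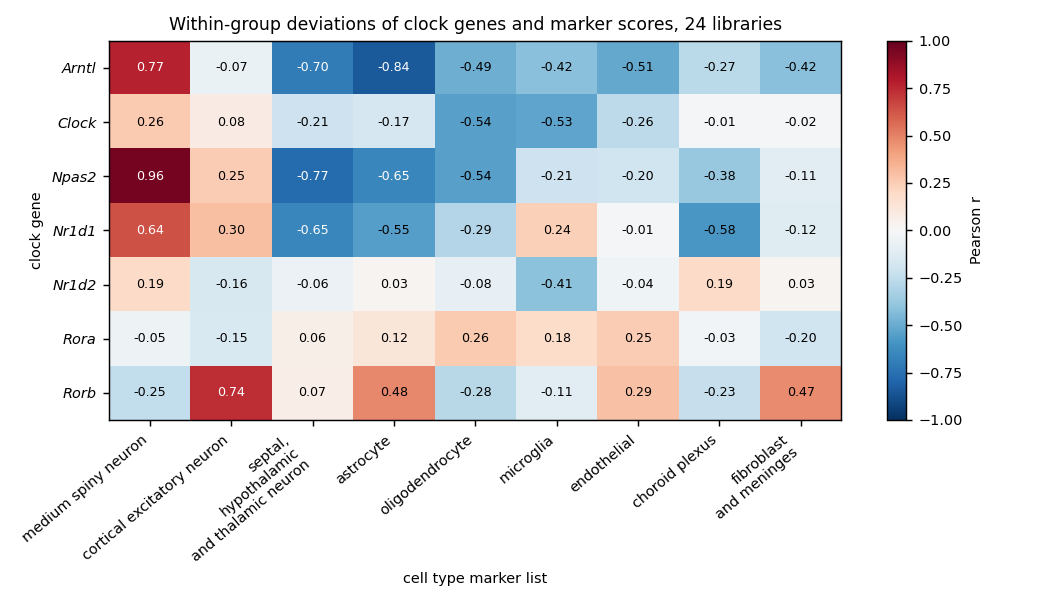
Pearson r (colour and number) between within-group deviations of each clock gene (rows) and of the score of each marker list (columns) over the 24 libraries of library set 1. Npas2 with medium spiny neuron markers (0.96) and Arntl with astrocyte markers (-0.84) stand at the extremes, and the rows of Rora and Nr1d2 run from -0.41 to 0.26.

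**Figure D4:**
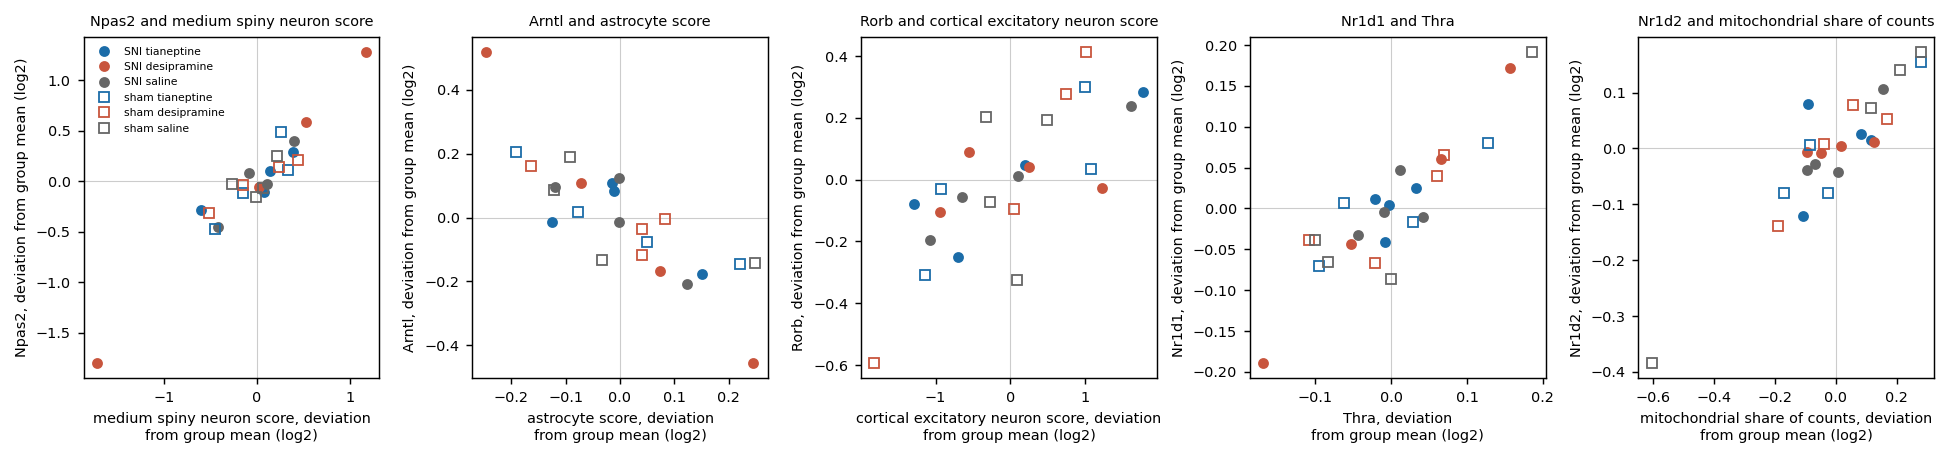
Deviations from the group mean on the log2 scale for 5 pairs over 24 libraries, with 1 point per library, filled for SNI and open for sham mice. SNI desipramine replicates 2 and 4 lie at the ends for Npas2, and sham saline replicate 2 lies apart at low Nr1d2 and low mitochondrial share.

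Arntl was refitted with the medium spiny neuron and astrocyte scores as covariates, an alternative chosen after seeing the data. Tianeptine minus desipramine was then -0.56 ± 0.06 on average, against -0.45 ± 0.09 without the covariates. Tianeptine minus saline was -0.27 ± 0.05 (edgeR adjusted p = 0.252), and desipramine minus saline was 0.29 ± 0.06 (edgeR adjusted p = 0.0491). Arntl in SNI against sham mice on desipramine was at -0.12 ± 0.09 (edgeR adjusted p = 0.466) in that fit. Without the covariates the edgeR adjusted p of Arntl was 0.387 for desipramine minus saline. The desipramine libraries are those behind the choice of members, and Arntl moved with both scores. The call with covariates is thus not separate support for a drug effect.

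The genes whose within-group pattern was most like that of a member, by Pearson r over 24 libraries among 13414 genes, follow as a description. Npas2 was nearest to Rab40b (0.99), Serpina9 (0.98) and Slc24a4 (0.98), and Arntl to Fam76a (0.92), Wdr17 (0.92) and Irak1bp1 (0.91), with Serpinf1 at the negative end (-0.93). Clock was nearest to Gmfb (0.95), Exoc5 (0.94) and Tmed7 (0.94). Nr1d1 was nearest to Tor2a (0.93) and Chaf1a (0.93), and Nr1d2 to mt-Nd6, Yipf6 and mt-Nd2 (0.93 each), 2 of these being mitochondrially encoded. Rorb was nearest to Slc24a2 (0.91), with Crabp1 at the negative end (-0.91). Rora had the weakest match, with Ahcyl1 at 0.87, and the 95th percentile of absolute r for it was 0.48, against 0.67 to 0.84 for the other members.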

How the data were processed

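PolyA RNA of 30 accumbens punches, 1 library per mouse, was sequenced from a stranded kit, per the labels' protocols. Per the submitters' processing notes the authors used Trim Galore, HISAT2, SAMtools and featureCounts on mm10, and neither versions nor the strand setting nor the annotation are stated there. The authors deposited raw counts per gene, which were tested. Their deposited FPKM table equals counts per library total and whole gene span (100% of values within 0.1%) and was not tested. Of 55401 gene IDs, 54349 matched GENCODE M21 exactly, 792 without the version, and 260 (0.051% of counts) did not match.

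Groups came from the surgery and treatment labels. Counts were fitted with edgeR 4.0.16 in R 4.3.3 (TMM scaling, filterByExpr, robust quasi-likelihood, a term for each group and for library set). All 23736 genes kept entered 1 fit and Benjamini-Hochberg adjustment at 0.05. Residual degrees of freedom were 23 and the common biological coefficient of variation was 17.5%. Levels are TMM-scaled CPM computed from the counts, and depth was 24.5 to 120.7 M counts. DESeq2 1.42.0 and limma 3.58.1 (voom), other filters and scalings, a replicate block, covariates and leaving out each library were alternatives, and the scripts were tested on simulated data. Correlations used deviations of log2 CPM (prior count 2) from group means in library set 1, with 100000 permutations within groups. The members, gene lists and tests were chosen with earlier results of these data known. Named were all 7 members, listed clock genes that passed or had the smallest p (some are not reported here), and for likeness the genes of highest or lowest r.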

Additional observations from a re-analysis of the deposited data

Results flagged for a closer look

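In 4 of 42 groups of 4 to 6 libraries examined (7 members in 6 groups), 1 library lay further from the rest than Dixon's 95% critical value allows, and chance flags about 1 in 20 groups. Clock in SNI desipramine replicate 4 was at 122 CPM, with the other libraries of the group at 104 to 106 CPM (gap over range 0.889, critical value 0.829). SNI saline replicate 5 accounts for the other 3 and is the 1 library of its group from library set 2. There Clock was at 124 CPM with the others at 99.2 to 106 (0.726, critical value 0.71), Rora at 68.9 CPM with the others at 38.8 to 44.9 (0.797), and Rorb at 33 CPM with the others at 13 to 17.6 (0.77). All 3 of these genes were higher in set 2 across groups, and the part of the library set in these values was not tested.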

How the results depend on the processing

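Leaving out each library in turn kept 427 of 450 counts of members called within 1.5 times, and the other alternatives 163 of 188. In most comparisons no member was called in the main fit, so this agreement says little about the calls themselves. With 1 library left out at a time, counts ranged from 0 to 4 for SNI against sham on desipramine, 0 to 3 averaged over treatments, 0 to 1 for desipramine against saline in sham mice and on average, 0 to 2 in SNI mice, 0 to 3 for the desipramine interaction, and, for tianeptine against desipramine, 1 to 2 in sham mice, 0 to 4 in SNI mice and 2 to 3 on average. Replicate numbers do not pair the samples (mean r -0.027 between same-numbered libraries, 0.009 between others; 2 of 24 matched their own number best); a replicate block gave 1 call (Nr1d1) in place of 3 for tianeptine against desipramine in SNI mice and moved no other count of members called by over 1.5 times.

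For SNI against sham on desipramine, 2 calls became 1 (Nr1d1) without the library set term and 0 with tissue scores, with medium spiny neuron and astrocyte scores, or without SNI desipramine replicates 2 and 3. Without sham saline replicates 2 and 3, desipramine against saline gave 1 call in each surgery and on average, in place of 0. With the mitochondrial share it gave 1 in sham mice and on average, and tianeptine against saline gave 1 in SNI mice and on average. The medium spiny neuron and astrocyte scores gave 1 for desipramine on average. DESeq2 gave 2 for desipramine in SNI mice and 1 for the interaction. For tianeptine against desipramine, set 1 alone gave 0 in sham mice, 1 in SNI mice and 1 on average; in SNI mice tissue scores and leaving out SNI desipramine replicates 2 and 3 gave 0, and the medium spiny neuron and astrocyte scores 1. Of the member pairs 3 passed over all 30 libraries and 1 without the 2 farthest; of the marker pairs 4 passed without the 2 farthest and 5 with RLE scaling, in place of 9. The cause was not tested.

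Signs of log2 fold changes turned in these cases. Without the set term Rora was at 0.03 for tianeptine against saline in sham mice and on average, -0.04 for desipramine against saline and 0.07 for tianeptine against desipramine on average; Rorb was at -0.10 for desipramine in SNI mice; Clock was at 0.05 (sham) and 0.08 (average) for tianeptine against desipramine. With tissue scores Rorb was at 0.14 (desipramine) and 0.10 (average) for SNI against sham, and Npas2 at 0.05 for tianeptine in sham mice, 0.14 and 0.17 for desipramine in SNI mice and on average, and -0.01 for tianeptine against desipramine in SNI mice. Without SNI desipramine replicates 2 and 3 Npas2 was at 0.26 and 0.17 for desipramine against saline in SNI mice and on average, -0.21 and -0.27 for tianeptine against desipramine in SNI mice and on average, and 0.18 for the desipramine interaction. Without sham saline replicates 2 and 3 Clock was at -0.10 and -0.04 for tianeptine and desipramine in sham mice. With medium spiny neuron and astrocyte scores Npas2 was at 0.02 for SNI against sham on saline, 0.02 and 0.12 for desipramine against saline in SNI mice and on average, and -0.06 for tianeptine against desipramine in SNI mice, and Rorb at -0.07 for desipramine against saline in SNI mice. Set 1 alone put the Rorb tianeptine interaction at 0.16. Leaving out 1 library gave Clock -0.08 to 0.04 (tianeptine) and -0.02 to 0.11 (desipramine) and Rora -0.20 to 0 in sham mice, and Arntl -0.17 to 0.17 for desipramine in SNI mice.

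Over all genes, 2682 calls for SNI against sham on desipramine became 1701 without a filter, 14 with medium spiny neuron and astrocyte scores and 0 with tissue scores or without SNI desipramine replicates 2 and 3; averaged, 437 became 1601 with DESeq2, 1256 with the mitochondrial share and 0 with limma-voom. For tianeptine against desipramine, 104 on average became 422, 315 in SNI mice 1201 and 17 in sham mice 145 with DESeq2; for desipramine against saline, 7 became 132. Set 1 alone left 62 on average, 27 in SNI and 1 in sham mice for tianeptine against desipramine, and 0 for desipramine against saline.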
